A study of Mus musculus with 4 samples.

Results

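DNase I hypersensitive sites absent from the list of estradiol-treated cells, and from no other list, were examined in 7438 cells. They were selected by joining overlapping or touching regions of the 4 deposited lists and keeping the merged regions with a region from Dex+E2, Dex and untreated cells and none from E2-treated cells. This gave 6024 members out of 103288 merged regions. DNase-seq maps stretches of chromatin that the nuclease DNase I cuts easily, and the 7438 cells are a mouse mammary line. Cells of all 4 groups carry GFP-tagged glucocorticoid receptor (GR) and Cherry-tagged estrogen receptor (ER) under a tetracycline-regulated promoter. All were plated 48 h before the experiment in charcoal-dextran serum, and tetracycline was withdrawn 24 h before hormone, so that both fusion proteins were made in every group, the untreated one included. The groups were 100 nM dexamethasone plus 100 nM estradiol (Dex+E2), 100 nM dexamethasone (Dex, a synthetic GR ligand), 100 nM estradiol (E2, an ER ligand), each for 30 min, and untreated cells. Each group had 1 library, so no difference between treatments could be tested, and an effect of a hormone cannot be told apart from a difference between libraries.

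As background, GR without ligand resides mostly in the cytoplasm, and Dex sends it to the nucleus, where it binds many sites whose chromatin is already accessible. ER is nuclear with or without ligand, and estradiol increases its binding to DNA. Both receptors recruit remodelling complexes, so hypersensitivity at a site can increase when a receptor binds there, and sites can also lose accessibility after hormone. A member is a site listed in untreated cells, with Dex and with both hormones, but not with E2 alone. The E2 list thus differs there from the list of cells given E2 together with Dex. Whether the E2 library itself differs there is not known, since unlisted sites have no value. Genes and DNA sequence at these positions were not analysed here. Positions are mm9, as the lists give them.

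The lists held 50061 regions for Dex+E2, 51251 for Dex, 35496 for E2 and 65879 for untreated cells. The strength of a region is its deposited maximum tag density, which the authors scaled per library to a total that is not stated. All of these densities in each list (100%) fell, to within 0.02 tags, on a grid with 1 fixed spacing. That spacing was taken as 1 tag, which is 0.227 for Dex+E2, 0.245 for Dex, 0.200 for E2 and 0.255 for untreated cells. If all libraries were scaled to the same total, the E2 library was 1.28 times as deep as the untreated one. Shares carry Wilson 95% intervals, and densities and ratios carry 95% intervals that treat tag numbers as Poisson counts. Neither kind holds anything but counting error. A density is the highest value within a region, and named sites were picked by extreme values. Intervals of single sites are therefore approximate and do not allow for that choice.

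The E2 list was the shortest and its densities were the lowest. Over the 20687 regions in all 4 lists the median density was 15.4 in Dex+E2, 14.7 in Dex, 10.2 in E2 and 30.1 in untreated cells. The lowest density listed after E2 was 2.20 and the median of the E2 list was 7.40. Of the 26711 regions in the Dex+E2, Dex and untreated lists, 22.6% were missing from the E2 list, which are the 6024 members. With all lists reduced to equal length the number was 3701, and with the Dex+E2, Dex and untreated lists reduced to their denser 50% and the E2 list whole it was 1829. With all 4 lists reduced to their denser 50% it was 4270. Shares, and numbers for the other lists, were not computed from reduced lists. For each of the other lists as deposited the share missing was smaller, at 7.78% for Dex (1746 regions), 3.87% for Dex+E2 (833 regions) and 1.76% for the untreated list (371 regions). How far the lower densities of the E2 library account for the members was not tested. Values of the E2 library at the members are unknown, because a region below the authors' threshold is not listed, and its absence does not show closed chromatin.

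Most members were weak sites. Their density in Dex+E2 ran from 2.04 to 118 with a median of 7.49. In Dex it ran from 2.45 to 123 with a median of 8.08, and in untreated cells from 2.04 to 42.6 with a median of 11.99. These medians were 0.485, 0.550 and 0.398 of the library medians over the regions in all 4 lists. Regions missing from the Dex list only were nearly as strong, with medians of 7.49 in Dex+E2 and 10.2 in untreated cells. The members were narrower than regions in all 4 lists, with a median merged width of 749 bp against 1009 bp. They were wider than regions missing from the Dex list only (649 bp), the Dex+E2 list only (667 bp) or the untreated list only (690 bp). Within single libraries their median width was 537 bp in Dex+E2, 571 bp in Dex and 678 bp in untreated cells, against 746 bp, 789 bp and 959 bp for regions in all 4 lists. Of the 6024 members, 5601 (93.0%) were made of exactly 1 region of each of the 3 lists.

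The share of regions missing from the E2 list dropped steeply with strength, measured as the smallest density in the other 3 lists. Below 5 it was 52.0% (49.2 to 54.9, 625 of 1201 regions), and from 5 to 7.5 it was 52.1% (50.9 to 53.4, 3131 of 6007). It was 32.0% from 7.5 to 10, 10.8% from 10 to 15 and 1.78% from 15 to 20. At 20 or more it was 0.249% (0.151 to 0.411), that is 15 of 6018 regions. In every class under 15 the share missing from E2 was above the share missing from any other single list. For Dex the shares in the same classes were 23.2%, 16.6%, 6.83%, 1.52% and 0.361%, and 0.171% (6 of 3507) at 20 or more. No region was missing only from the Dex+E2 list at a smallest density of 20 or more (0 of 3351, which allows a share of up to 0.0895% at a limit of 3 counts and 0.115% by the Wilson interval). The classes are set by different libraries for each list, so equal classes do not hold regions of equal strength.

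**Figure D1:**
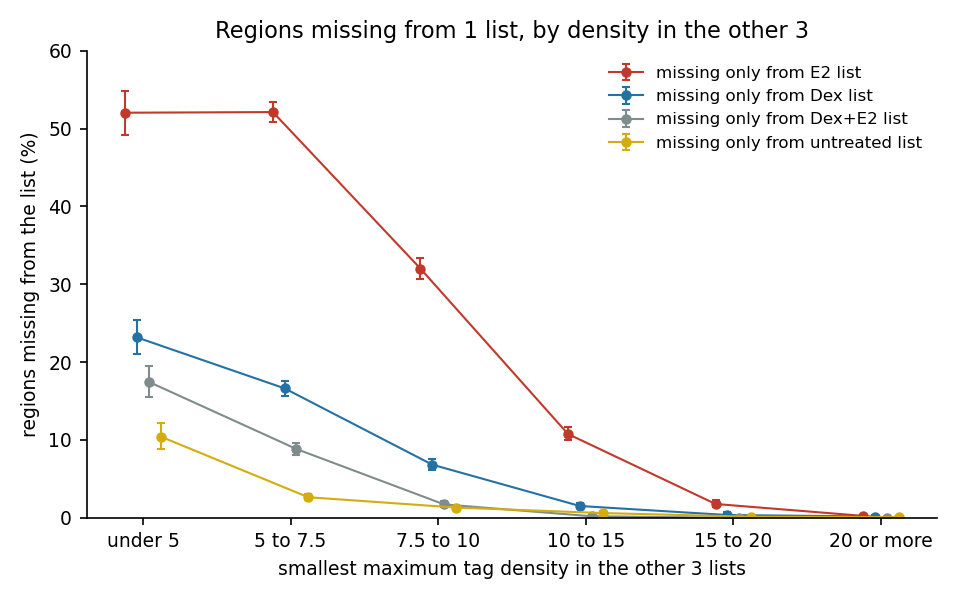
Share of regions (%) that 1 list lacks, by the smallest maximum tag density in the other 3 lists, for each of the 4 lists; points are shares and bars Wilson 95% intervals. The E2 points start at 52.0% below a density of 5 and end at 0.249% at 20 or more, and they lie above the other lists in the classes under 15.

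Sites as strong as many members were also listed after E2, at densities that followed their strength elsewhere. Regions in all 4 lists with a smallest density from 7.5 to 10 in the other 3 had a median E2 density of 7.40, the same as the whole E2 list, and 5% of them were at or below 5.20. For those at 20 or more in the other 3 the E2 median was 21.4 and the 5th percentile 10.8. The members with the lowest Z score (the authors' score of a region against the background of its own library) were chr13:52833108-52834126, chr5:122680004-122680603 and chr3:40490635-40491239, each with 4.96 in untreated cells. Just outside the rule, chr8:125564657-125565348, chr1:167516386-167517081 and chr10:67441921-67442738 were listed after E2 at densities of 5.00, 5.60 and 4.60, each with a Z score of 5.26. The lowest Z score of a list was 5.26 for E2, 5.18 for Dex, 5.15 for Dex+E2 and 4.95 for untreated cells. The E2 list thus began at the highest score and held none as low as 4.96. How far this accounts for the members was not tested.

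The strongest members were grouped by the libraries in which they reached a set density. A density of 20, a limit chosen after earlier results of these data were known, was reached in at least 1 library by 798 members (13.2%, 12.4 to 14.1), against 15203 of 20687 regions in all 4 lists (73.5%). The largest group, 575 members, reached 20 in untreated cells only, with medians of 9.76 in Dex+E2, 11.0 in Dex and 22.7 in untreated cells. As deposited, the choice of this group fixes the sign of its log2 ratios to untreated. Their medians were −1.23 for Dex+E2 and −1.11 for Dex. When each density was divided by its library's median over the regions in all 4 lists, they were −0.27 and −0.07. Most of the deposited gap was thus shared with the regions in all 4 lists. Library scale and treatment cannot be told apart as the source of that shared gap. Another group of 98 members reached 20 in Dex+E2 and in Dex and not in untreated cells, with medians of 25.6, 33.1 and 11.7. A further 74 reached it in Dex only, with medians of 16.3 in Dex+E2, 23.0 in Dex and 10.7 in untreated cells. Just 14 members reached it in Dex+E2 only. The remaining strong members comprised 15 at 20 or more in all 3 libraries, 21 in Dex and untreated cells and 1 in Dex+E2 and untreated cells.

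These groups differed in how often the E2 list lacked such sites, but their choice also set some of them apart by untreated density. Over all ratios of Dex to untreated, the share missing was 51.6% at an untreated density of 10 to 15 and 11.4% at 20 to 30. How far untreated density accounts for the differences between the groups was not tested. Among regions that reached 20 in Dex+E2 and Dex but not in untreated cells, 98 of 205 (47.8%, 41.1 to 54.6) were missing from E2. Among those at 20 in Dex only it was 74 of 128 (57.8%, 49.2 to 66.0). Among those at 20 in untreated cells only it was 575 of 7282 (7.90%, 7.30 to 8.54), and among those at 20 in Dex+E2 only, 14 of 196 (7.14%, 4.30 to 11.6). Sites below 20 in all 3 libraries were missing in 5226 of 10713 cases (48.8%).

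**Figure D2:**
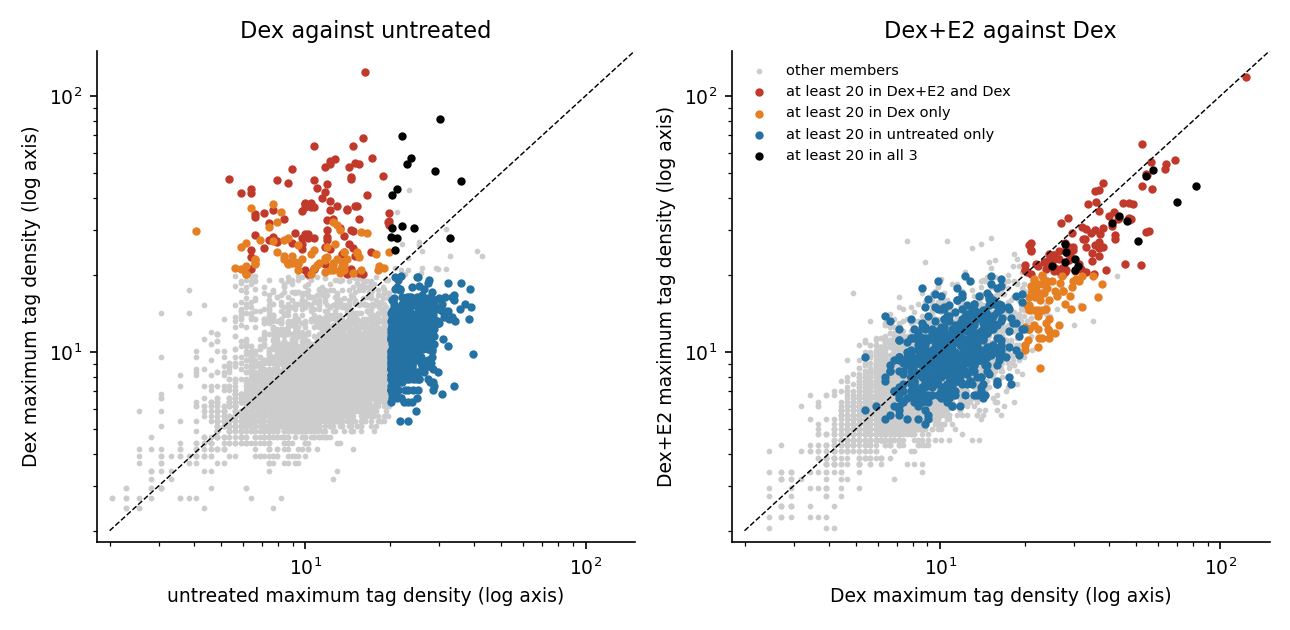
Maximum tag density of each of the 6024 members, with Dex against untreated on the left and Dex+E2 against Dex on the right (log axes, dashed line at equal density); colours mark members that reach 20 in the libraries named. By the choice of the groups, the 575 members at 20 in untreated cells only lie below the line on the left. The 98 at 20 in Dex+E2 and Dex lie above it for the same reason. As deposited, 3722 of the 6024 members lie below the line on the right.

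By the choice of this group, the 15 members at 20 or more in all 3 libraries were strong wherever they were listed. The leading one, chr16:30502122-30503441, had densities of 32.4 (27.3 to 38.2) in Dex+E2, 46.3 (39.9 to 53.4) in Dex and 36.0 (30.3 to 42.4) in untreated cells. Dex was the high library, by a log2 of 0.36 (0.04 to 0.69) over untreated, while Dex+E2 over untreated was −0.15 (−0.49 to 0.20), both as deposited. Relative to the library medians these were 1.40 for Dex and 0.82 for Dex+E2. Within 20 kb of it lay 9 other merged regions, 4 of them in the E2 list, including chr16:30512189-30514664 at 43.1 in Dex+E2, 49.96 in Dex, 33.0 in E2 and 134 in untreated cells. The E2 library thus had tags in this neighbourhood.

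At chr6:5392151-5393873 the densities were 44.5 in Dex+E2, 81.5 in Dex and 30.4 in untreated cells. The Dex library was the high one, 2.69-fold over untreated (log2 1.43, 1.12 to 1.74), and Dex+E2 over Dex was −0.87 on the log2 scale (−1.14 to −0.62). An E2 region lay 423 bp away, at chr6:5394296-5395101, with 14.2 in E2, against 17.2 in Dex+E2, 18.9 in Dex and 26.5 in untreated cells. At chr4:43362315-43363582 the order was the same, with 38.3 in Dex+E2, 69.8 in Dex and 22.2 in untreated cells, and the nearest E2 region was 30572 bp away.

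The member chr12:17141017-17142251 had 51.5 (45.0 to 58.7) in Dex+E2, 57.3 (50.2 to 65.1) in Dex and 23.7 (19.1 to 29.1) in untreated cells. Both libraries with Dex were above the untreated one, by 2.17-fold in Dex+E2 and 2.42-fold in Dex. The only other merged region within 20 kb, 7235 bp away at chr12:17149486-17150376, had the reverse listing, with 41.7 in Dex+E2, 19.4 in E2, 8.67 in untreated cells and no Dex region. A pair of neighbouring sites thus carried one listed without E2 and one listed without Dex, and both were listed after co-treatment.

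At chr8:96886970-96887940 the deposited densities were 22.5 in Dex+E2, 27.9 in Dex and 32.9 in untreated cells. The untreated library was highest as deposited, but relative to the library medians the log2 ratios to untreated were 0.41 for Dex+E2 and 0.80 for Dex. Only 779 bp away, chr8:96885202-96886191 was listed in Dex+E2 (18.1) and Dex (14.7) and in neither other list. Another site 3801 bp away, chr8:96882371-96883169, had 24.96 in Dex+E2, 6.86 in Dex and 10.6 in E2 and was missing from the untreated list. Adjacent sites therefore had 3 different listings within a few kilobases.

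The other members among the 10 with the highest smallest density over the 3 libraries were chr6:12407316-12409792 (27.0 in Dex+E2, 50.7 in Dex, 29.1 in untreated cells), chr2:35363849-35364980 (48.5, 54.4 and 23.0 in the same order), chr11:43771481-43772936 (21.6, 31.1 and 22.2), chr17:47644711-47645640 (26.3, 27.9 and 21.2) and chr2:69160448-69161678 (34.0, 43.3 and 21.2). In each of the 10 the Dex density was above the Dex+E2 density. As deposited, the interval of Dex+E2 over Dex lay below 0 on the log2 scale at 6 of the 10, chr16:30502122-30503441, chr6:5392151-5393873, chr6:12407316-12409792, chr4:43362315-43363582, chr11:43771481-43772936 and chr2:69160448-69161678. The share of all regions with such an interval was not computed. By the density alone, Dex+E2 was below Dex at 61.8% of all members and 49.3% of all merged regions in both lists.

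**Figure D3:**
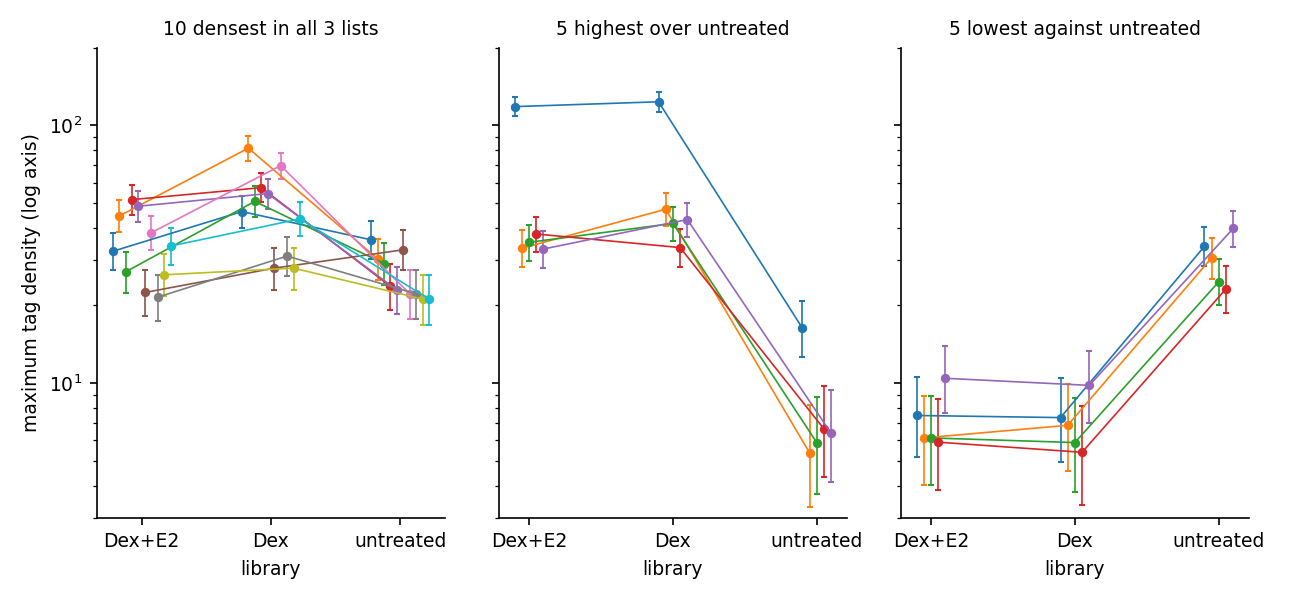
Maximum tag density (log axis) in the Dex+E2, Dex and untreated libraries of the 10 members with the highest smallest density, the 5 highest by the smaller and the 5 lowest by the larger of both ratios to untreated; bars are exact Poisson 95% intervals. The member ranked first by the smaller of its ratios to untreated stands at 118 in Dex+E2, 123 in Dex and 16.3 in untreated cells, and the 5 lowest members lie at 10.4 or below in Dex+E2 and at 9.80 or below in Dex.

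Ranked by the smaller of Dex+E2 over untreated and Dex over untreated, members high with Dex were led by chr4:64255804-64256908, 7.24-fold over untreated in Dex+E2 and 7.56-fold in Dex, as deposited. At chr16:87267983-87269156 densities were 33.3 in Dex+E2, 47.3 in Dex and 5.36 (3.32 to 8.19) in untreated cells, an 8.82-fold excess of Dex over untreated, above that of the first site, and a 6.23-fold excess of Dex+E2. Another member 5692 bp away, chr16:87261645-87262291, had 16.6, 15.7 and 8.16 in the same order, and no E2 region lay within 20 kb. The sites chr18:21129353-21130288 (35.2 in Dex+E2, 41.6 in Dex, 5.87 in untreated cells) and chr19:17023141-17025007 (33.1, 43.1 and 6.38) had a similar form.

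At chr14:70735938-70737025 the densities were 37.9 in Dex+E2, 33.5 in Dex and 6.63 in untreated cells. A second site 3923 bp away, chr14:70730894-70732015, had a like profile of 43.3, 54.4 and 11.0 but was listed after E2, at 5.60. In the E2 list this is below the median of 7.40. Between them, chr14:70732396-70734742 had 38.8 in Dex+E2, 35.3 in Dex, 24.4 in E2 and 77.8 in untreated cells.

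At the other end were members that were high in untreated cells. The site chr6:100448648-100449675 had 7.49 in Dex+E2, 7.35 in Dex and 33.9 in untreated cells, a deposited log2 ratio to untreated of −2.18 (−2.78 to −1.62) for Dex+E2 and −2.21 (−2.83 to −1.63) for Dex. Relative to the library medians these were −1.22 and −1.17. Similar profiles were seen at chr5:93556513-93557274 (6.13, 6.86 and 30.6 in the same order), chr13:91499435-91500563 (6.13, 5.88 and 24.7), chrX:130136481-130138253 (5.90, 5.39 and 23.2) and chr15:59608805-59609587 (10.4, 9.80 and 39.8). The Dex+E2 and Dex densities at these sites were low against the untreated ones, by which they were picked, and E2 was unlisted. At chr15:59608805-59609587 they were above the members' medians of 7.49 in Dex+E2 and 8.08 in Dex. At the other sites they were at or below these medians. The widest members, chr15:50754238-50758355 (4117 bp), chr1:66861265-66864788 (3523 bp) and chr16:81600114-81603543 (3429 bp), had their highest deposited density in untreated cells, at 20.7, 25.2 and 12.8. Relative to the library medians Dex over untreated was 0.52, −0.30 and 0.46 on the log2 scale, so that the direction turned at the first and the last. Each had at most 11.1 in Dex+E2 and 14.4 in Dex.

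Over all members the deposited densities were lower in both libraries with Dex than in untreated cells, but by less than elsewhere. The median log2 ratio was −0.56 for Dex over untreated, against −0.88 over all 31784 merged regions in both lists, and −0.64 for Dex+E2 over untreated, against −0.82 over 32130 regions. Both comparisons use the same untreated library. Relative to the library medians the sign turned. The members' medians were then 0.48 for Dex and 0.32 for Dex+E2, and those over all regions 0.16 and 0.14. On this scale 1239 of 6024 members (20.6%) were at least 2-fold higher in Dex, where 11.8% of all regions were, and 4 were at least 2-fold lower, where 0.406% were. For Dex+E2 over untreated 900 were higher (background 10.7%) and 15 lower (background 1.09%). As deposited, 231 members (3.83%) were at least 2-fold higher in Dex (background 1.10%) and 1176 lower (background 40.8%), and 142 were higher in Dex+E2 (background 1.36%) and 1487 lower (background 35.9%). The rule requires a listing with Dex and with both hormones, so these counts describe the members and are no test of them.

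From an untreated density of 7.5 upward, the share missing after E2 dropped with the untreated density at every size of the Dex response, in classes chosen after the data were seen. Among regions with at least 20 in Dex+E2, 92 of 188 (48.9%, 41.9 to 56.0) were missing from E2 when Dex over untreated was at a log2 of 2 or more relative to the medians, and 30 of 445 (6.74%, 4.76 to 9.46) when it was between 1 and 2. High ratios go with low untreated densities by construction. At an untreated density from 10 to 15 the share missing was 62.2% (51.4 to 71.9, 51 of 82) at a log2 of 2 or more, 47.0% from 1 to 2, 53.3% from 0 to 1 and 43.9% (39.8 to 48.0) below 0. At 15 to 20 the 4 shares were 34.5% (10 of 29), 28.1%, 30.9% and 30.7%. Over all ratios the share missing was 60.5% (58.0 to 62.9, 934 of 1545) below an untreated density of 7.5, lower than in the next class. It was 66.8% (64.6 to 69.0) at an untreated density of 7.5 to 10, 51.6% at 10 to 15, 30.7% at 15 to 20, 11.4% at 20 to 30 and 0.337% (35 of 10393) at 30 or more. Sites with the highest Dex response had the highest share in each class from 7.5 upward, but in every one of these classes their interval overlapped that of at least 1 other ratio class. From 15 upward they numbered just 29, 19 and 10 regions.

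**Figure D4:**
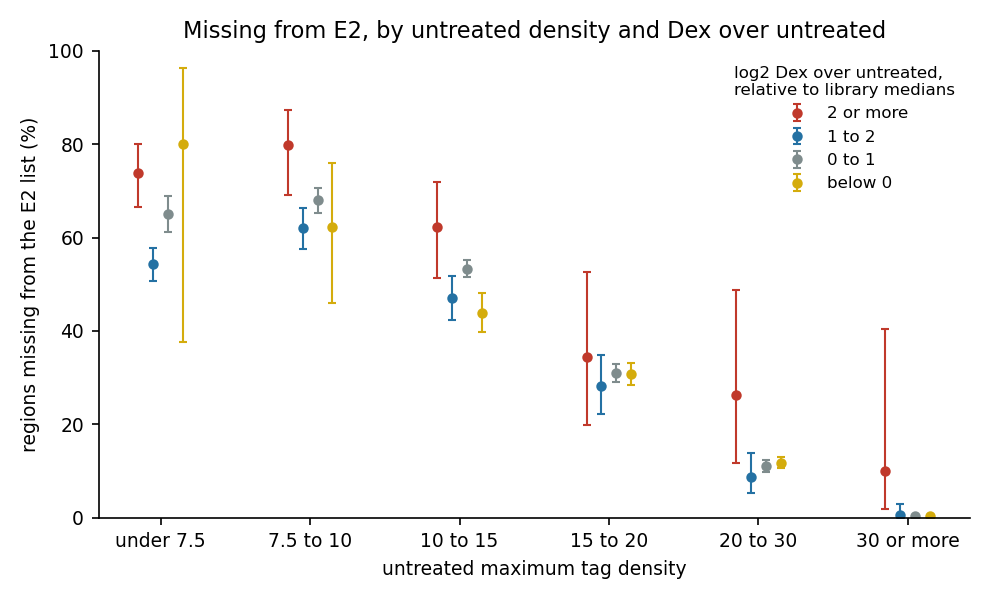
Share of regions (%) missing from the E2 list among those in the other 3 lists, by untreated maximum tag density and, in colour, by the log2 ratio of Dex over untreated relative to the library medians; bars are Wilson 95% intervals. From 7.5 upward all 4 ratio classes drop with untreated density, while 3 of them are lower below 7.5 than at 7.5 to 10; the drop is from 62.2% at 10 to 15 to 10.0% at 30 or more in the highest ratio class and from 43.9% to 0.291% in the lowest.

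Adding E2 to Dex went with lower density at the members. Dex+E2 was below Dex as deposited at 3722 of 6024 members (61.8%), with a median log2 ratio of −0.11, against 0.01 over all 29066 merged regions in both lists. Relative to the library medians the member median was −0.18, with 10 members at least 2-fold higher (background 1.58%) and 126 lower (background 1.32%). As deposited these were 17 (background 2.05%) and 81 (background 0.881%). The share of members at least 2-fold lower, 2.09% relative to the medians and 1.34% as deposited, was thus above the background on either scale. Both are small shares, and the background includes the members. Of the regions in all 4 lists, 0.889% and 0.590% were at least 2-fold lower on these scales, and 1.84% and 2.41% at least 2-fold higher.

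The gap was wider at stronger members. Taken by the geometric mean of both densities, the median log2 ratio of Dex+E2 over Dex was −0.05 at members below 6, −0.11 from 8 to 12, −0.22 from 12 to 20 and −0.31 at 20 or more. In the last class 134 of 155 members (86.5%) were lower in Dex+E2, against 2938 of 7183 regions in all 4 lists (40.9%), whose median was 0.08. It was not particular to the members, since sites listed in Dex+E2 and Dex only had a median of −0.30 in this class, with 71 of 95 lower (74.7%). Regions missing from the untreated list only went the other way, with a median of 0.44 over 24 regions.

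**Figure D5:**
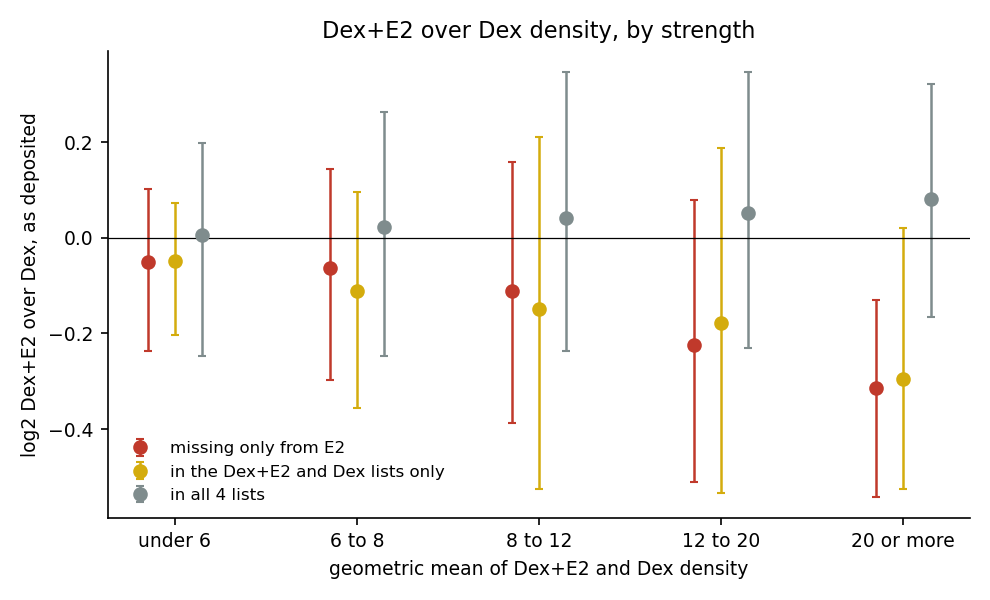
Log2 ratio of Dex+E2 over Dex density, as deposited, by the geometric mean of both densities, for the members, for sites in the Dex+E2 and Dex lists only, and for regions in all 4 lists; points are medians and bars run from the lower to the upper quartile. At 20 or more the members' median is −0.31, that of sites in both Dex lists only −0.30, and that of regions in all 4 lists 0.08.

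Single sites departed from the members' median in both directions. At chr11:61091863-61092784 densities were 13.2 in Dex+E2, 35.0 in Dex and 21.2 in untreated cells, so that Dex+E2 over Dex had a log2 of −1.41 (−1.88 to −0.96). The site chr17:28655198-28656323 had 8.62, 22.8 and 6.63 in the same order. Its neighbour 1683 bp away, the member chr17:28652276-28653515, had 54.0, 63.9 and 10.7, so that the 2 members of this pair differed in how far Dex+E2 lay below Dex. At chr15:102811345-102812575 densities were 7.49 in Dex+E2, 17.9 in Dex and 23.98 in untreated cells. In the opposite direction, chr7:19811883-19812790 had 27.0 in Dex+E2, 7.59 in Dex and 9.95 in untreated cells, a log2 of 1.83 (1.25 to 2.45) for Dex+E2 over Dex. A region in all 4 lists lay close beside it, at chr7:19812901-19814543, with 71.7 in Dex+E2, 79.8 in Dex, 43.2 in E2 and 174 in untreated cells. The sites chr3:60400752-60401488 (27.0 in Dex+E2, 10.5 in Dex) and chr1:92796807-92797617 (22.5 and 8.82) were likewise higher with both hormones. At 1244 bp from the chromosome 1 site, chr1:92798861-92799531 was listed in Dex+E2 (19.96) and E2 (9.40) only.

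Members were spread over the genome, and most had a region of the E2 list within 20 kb. The share of regions missing from E2 ran from 20.1% on chromosome 7 (18.3 to 22.1) to 25.2% on chromosome 6 (23.0 to 27.5) over 20 chromosomes. The nearest E2 region was a median of 11512 bp away (quartiles 3383 and 30260), with 172 members (2.86%) within 150 bp, 424 (7.04%) within 500 bp, 1892 (31.4%) within 5 kb and 3842 (63.8%) within 20 kb of one. Regions in all 4 lists hold an E2 region by definition, and this distance was not measured for other patterns. These shares therefore do not set the members apart. The nearest other member was a median of 67407 bp away, and 1444 members (23.97%) had one within 20 kb. Of the regions in all 4 lists, 22.5% had a member within 20 kb. Stretches of up to 100 kb held at most 6 members. One of these, chr6:85018365-85105603, held 8 merged regions, none of them in the E2 list, and its members had densities of 4.99 to 8.39 in Dex+E2, 5.39 to 11.999 in Dex and 8.93 to 20.1 in untreated cells. Another, chr11:32150779-32250035, held 14 merged regions with 3 in the E2 list and none in all 4 lists.

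The share of members near a site listed only in Dex+E2 and Dex differed between the groups by strength. Within 20 kb of such a site were 17 of the 98 members at 20 or more in Dex+E2 and Dex only (17.3%, 11.1 to 26.0) and 16 of the 74 at 20 in Dex only (21.6%, 13.8 to 32.3). For the 575 members at 20 in untreated cells only it was 51 (8.87%, 6.81 to 11.5), and for the 5226 members below 20 in all libraries 380 (7.27%, 6.598 to 8.01). Among the small groups it was 4 of the 15 members at 20 in all 3 libraries (26.7%, 10.9 to 52.0), 3 of the 14 at 20 in Dex+E2 only (21.4%) and 1 of the 21 at 20 in Dex and untreated cells (4.76%, 0.846 to 22.7). The interval for members at 20 in Dex+E2 and Dex only overlapped that of the members at 20 in untreated cells only, and the one for Dex only did not. These intervals treat members as independent and hold counting error only, so their overlap is no test of the groups. Of the 107 regions in all 4 lists that were at 20 in Dex+E2 and Dex and not in untreated cells, 21 (19.6%, 13.2 to 28.1) had such a neighbour, and so did 5 of the 54 at 20 in Dex only (9.26%, 4.02 to 19.9). Over all members the share was 7.84%, and over all regions in 4 lists 7.89%. A site listed only in Dex+E2 and E2 lay within 20 kb of 4.80% of the members (4.29 to 5.37) and of 6.02% of the regions in all 4 lists (5.71 to 6.36).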

How the data were processed

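DNase-seq libraries of 7438 cells, 1 per treatment, were grouped by the treatment in their labels. CASAVA 1.8 and the build mm9 are named in the submitters' processing notes without a role. Which aligner and which region caller were used is not given in the sources used here. The highest and the mean tag density of a region were deposited by the authors as signal, per the file headers. Per the file headers, each region also has a Z score and a p-value; 100% of the deposited p-values above 0 equalled the 2-sided normal p of the score to within 0.01 on the log10 scale. Each library has its own list, and whether the first base is 0 or 1 is not stated in the lists.

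Regions of the 4 lists that overlapped by at least 1 bp or touched were joined, and a merged region took the highest value of its regions in each library. Ratios used the deposited densities or, on the relative scale, densities over the library median of the regions in all 4 lists. Exact Poisson intervals (densities), exact binomial ones (ratios) and Wilson ones (shares) are at the 95% level. The members, limits and regions were chosen with earlier results of these data known. Regions named are the 10 members with the highest smallest density, the 5 highest and 5 lowest against untreated, the 3 highest and 3 lowest for Dex+E2 over Dex (all picks by ratio with a density of at least 20 in 1 library), the 3 widest, and the 3 on each side of the rule by Z score; neighbours within 20 kb of these, and the 2 stretches rich in members, were named after their values were seen. The planned motif search was not run, since no genome of the files' build was used here. Merging and distances were tested on simulated data. Computations used SciPy 1.17.1 under Python 3.11.15, with pandas 2.3.3 and NumPy 2.4.6 for tables and Matplotlib 3.10.9 for plots.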

Additional observations from a re-analysis of the deposited data

How the results depend on the processing

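With 1 library per group nothing could be left out, and no paired analysis was possible because every group has 1 sample. The number of members was 3701 with lists of equal length and 1829 when the other 3 lists were reduced to their denser 50%, against 6024; joining regions within 150 or 500 bp, a 50% overlap, the denser 50% of all lists and leaving out chromosome X gave 4270 to 5984. Average tag densities have medians of 1.94 in Dex+E2, 1.98 in Dex and 2.80 in untreated cells, and the 798 members at 20 or more in 1 library have medians of 11.2, 12.2 and 21.7.

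On the deposited scale the member medians of the log2 ratios reversed for Dex (−0.56) and Dex+E2 (−0.64) over untreated and were −0.11 for Dex+E2 over Dex. Relative to the medians over regions in both lists compared, they were 0.31, 0.19 and −0.11 in the same order. Over the 798 strong members they were 0.11, −0.11 (reversed) and −0.29. Of these members, 575 passed the limit of 20 in untreated cells only. That filter favours high untreated densities, and so low ratios to untreated. For Dex+E2 over untreated and over Dex, the average density gave 0.29 and −0.23, and joining within 150 bp gave 0.30 and −0.20. Members of exactly 1 region per list gave 0.34 for Dex+E2 over untreated.

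Counts of members at least 2-fold higher and lower as deposited were 231 and 1176 for Dex over untreated, 142 and 1487 for Dex+E2 over untreated, and 17 and 81 for Dex+E2 over Dex. Relative to the medians of both lists, 15 members were lower for Dex over untreated and 48 for Dex+E2 over untreated, and 17 were higher and 82 lower for Dex+E2 over Dex. With average densities 33 and 62 members were lower than untreated in Dex and Dex+E2, and 61 were higher and 288 lower for Dex+E2 over Dex. Among the 798 strong members, 204 were higher for Dex and 179 for Dex+E2 over untreated, and 4 were higher and 35 lower for Dex+E2 over Dex. The limit of 20 also let in 98 members through Dex+E2 and Dex and 74 through Dex only, which favours high ratios to untreated. The same counts over other regions at this limit were not made, so these describe the members only. Of 73 values under alternatives, 33 were labelled as little moved, 37 as moved and 3 as reversed. The cause was not tested beyond the scaling itself. These labels do not measure stability, since the setting fixed some of them. Average tag density is another quantity, with a Dex+E2 median of 1.94 against 7.49. Counts over the 798 strong members cannot reach the 1239 members higher in Dex. Limits also differed between results. For Dex+E2 over untreated, 0.30 against 0.32 (joining within 150 bp) was labelled moved. For Dex, 895 against 1239 (medians of both lists) was labelled little moved.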
